A study of Mus musculus with 18 samples.

Results

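Doxorubicin and hydrogen peroxide were compared directly in MOVAS cells, with no untreated library in the comparison. The members are 6 of the 18 libraries of the series, chosen by the titles of their read-count columns: Dox replicates 1 to 3, whose treatment label is doxorubicin, and H2O2 replicates 1 to 3, whose treatment label is H2O2. MOVAS is an established mouse aortic smooth muscle cell line, immortalised with the large T antigen of a simian virus, a protein that binds p53 and the retinoblastoma protein. The series' design text places both agents in its senescence arm and speaks of biological replicates. Polyadenylated RNA was sequenced, and no dose or time of treatment is given in the labels used here. A gene that was higher in Dox may have been raised by doxorubicin or lowered by peroxide, since the untreated libraries were not analysed here. In bulk RNA, fewer cells of a type and less RNA per cell cannot be told apart.

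Doxorubicin is an anthracycline that intercalates into DNA, traps type II topoisomerase on broken DNA and can also generate reactive oxygen species. Hydrogen peroxide is itself an oxidant, which damages protein, lipid and DNA, is cleared by catalase and peroxidases, and activates NRF2, the transcription factor of antioxidant genes. Either agent can stop the cell cycle for good, in the state called senescence, in which p53 and its target Cdkn1a hold the arrest and the cell secretes cytokines, proteases and growth factors. Immune cells, natural killer (NK) cells among them, can recognise such cells through ligands on their surface.

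The Dox libraries held 20140802 to 23284077 counts and the H2O2 libraries 13382308 to 15621807, so every Dox library was the deeper. Thinning all 6 to the shallowest total gave 1575 genes called different in place of 1567. H2O2 replicate 3 stood apart from the other libraries: the leading principal component, with 42.3% of the variance, placed it at -78.6 and the other 5 between -2.22 and 32.4. The label of smooth muscle cell was checked against 10 smooth muscle markers. Acta2 (smooth muscle actin) was abundant, at 1719 to 3085 TMM-scaled CPM (reads of the gene scaled to a fixed library size, after a correction for composition), but Tagln lay at 0.128 to 0.859 CPM of library totals and Myocd, the coactivator of the contractile programme, at 0 to 0.320. In CPM of library totals, Smtn lay at 120 to 130, Lmod1 at 15.6 to 23.9, Des at 16.2 to 20.1 and Mylk at 6.95 to 17.9. Cnn1 lay at 3.33 to 11.6, Myh11 at 1.34 to 9.49 and Itga8 at 0.583 to 1.57. The level of a gene is given below in TMM-scaled CPM in the order of replicates 1, 2 and 3, and a difference as the log2 fold change of Dox over H2O2 with its standard error (SE), n = 3 libraries a group.

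Of 12452 genes tested, 1567 (12.6%) were called different by edgeR's quasi-likelihood test at an adjusted p under 0.05. Of these, 639 (5.13% of the genes tested) were higher in Dox and 928 (7.45%) were lower. Both shares are the background for each count of a gene list below, and they were not matched to the level or size of the listed genes. The change was over 2-fold for 258 genes, 133 higher and 125 lower, and the Dox and H2O2 libraries did not overlap for 1550 of the 1567. Over all genes tested, every Dox library was above every H2O2 library for 16.6% and below for 16.9%. Without H2O2 replicate 3, 2174 genes were called, 1061 higher (8.18% of the genes tested) and 1113 lower (8.59%). The other libraries moved the count as much: 492 genes were called without Dox replicate 3, 571 without Dox replicate 1 and 855 without H2O2 replicate 1. The share of called genes that were higher in Dox was 40.8% with TMM and 59.8% with library totals alone, a scaling that moved the median log2 fold change of all genes tested from 0.02 to 0.12; it was 48.8% without H2O2 replicate 3.

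Among called genes whose groups did not overlap and whose higher group averaged 5 FPKM or more, those with the largest rise in Dox over H2O2 were an immune chemokine, an epithelial structural gene, a carboxylesterase and a lymphocyte receptor. Ccl5 (ENSMUSG00000035042, chr11:83416604-83421344 in the coordinates of the deposited table, for which no source used here names a build) encodes a chemokine that draws T cells, NK cells and monocytes. It stood at 10.5, 10.7 and 7.93 in Dox and at 1.04, 0.786 and 1.2 in H2O2, a log2 fold change of 3.27 (SE 0.326, adjusted p = 0.000164). Every Dox library was far above every H2O2 library. Sprr1a (chr3:92391259-92393202), a small proline-rich precursor of the cornified envelope of skin, stood at 27.7, 32.3 and 23.6 in Dox and at 4.17, 2.36 and 5.27 in H2O2, a log2 fold change of 2.84 (SE 0.273, adjusted p = 0.000125). Ces2e (chr8:105652892-105661304), an esterase of the endoplasmic reticulum that cleaves drug and lipid esters, stood at 95.9, 152 and 117 in Dox and at 24.7, 23.7 and 15.3 in H2O2, 2.52 apart (SE 0.203, adjusted p = 3.25e-05). Its family member Ces2g rose by 1.18 (SE 0.111, adjusted p = 0.000106). Tigit (chr16:43469230-43484509), best known as an inhibitory receptor of T cells and NK cells, was low in both groups, at 9.37, 9.77 and 7.66 in Dox and 2.23, 1.51 and 1.36 in H2O2, a log2 fold change of 2.39 (SE 0.314, adjusted p = 0.00069). Pdk4, a kinase that switches off pyruvate dehydrogenase and so spares glucose, rose by 1.88 (SE 0.186, adjusted p = 0.00016), from 7.18 to 8.19 in the H2O2 libraries to 25.7 to 31.5 in the Dox libraries. Separate groups were a condition of the choice for these genes except Ces2g, whose groups did not overlap either. The 6 calls held whichever library was left out.

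By the same rule the 10 genes that were lower in Dox by the widest margin were 4 histone genes, Trnp1, Wnt6, Col3a1, Cdh22, Mt1 and Fdps. Mt1 (chr8:94905710-94906955), a metallothionein that binds zinc and copper and scavenges oxidants, stood at 221, 252 and 203 in Dox and at 1002, 944 and 901 in H2O2, a log2 fold change of -2.08 (SE 0.109) with the lowest adjusted p of the genes named here (1.24e-06). Every H2O2 library was above every Dox library. Wnt6, a secreted Wnt ligand, stood at 4.40, 4.86 and 4.65 in Dox and at 24.7, 16.3 and 24 in H2O2 (log2 fold change -2.22, SE 0.227, adjusted p = 0.000197). Trnp1, a nuclear protein best known from neural progenitors, differed by -2.44 (SE 0.295) and Cdh22, a cadherin, by -2.11 (SE 0.261). Outside these 10, Vegfb (chr19:6959841-6965019), a growth factor of the VEGF family, stood at 29.1, 34.5 and 30.4 in Dox and at 97.8, 93.5 and 90.0 in H2O2 (log2 fold change -1.58, SE 0.123, adjusted p = 2.72e-05).

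**Figure D1:**
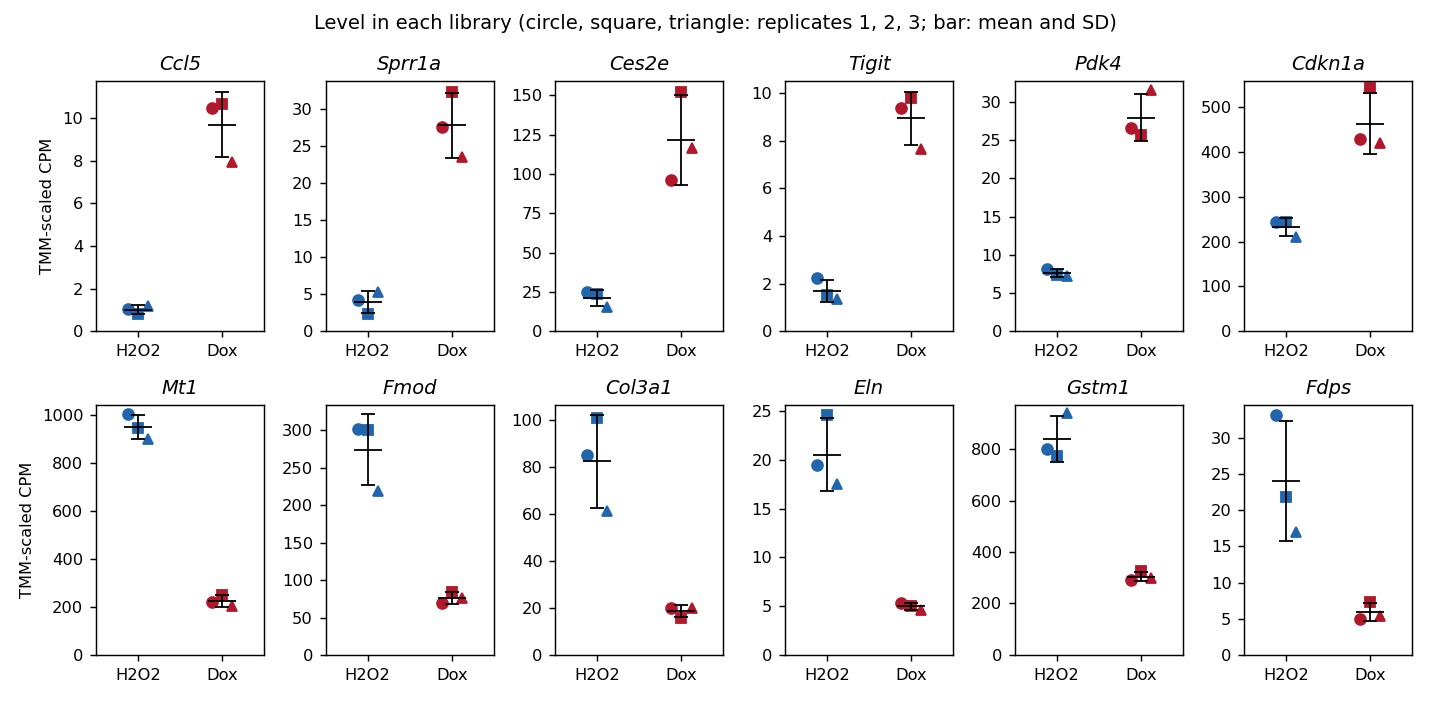
TMM-scaled CPM of 12 genes in the 3 H2O2 libraries (blue) and the 3 Dox libraries (red), linear axes from 0, with the mean and SD of each group as a bar. Ccl5 lay at 7.93 to 10.7 in Dox and 0.786 to 1.2 in H2O2, and Mt1 at 203 to 252 in Dox and 901 to 1002 in H2O2; no panel shows an overlap of the groups.

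Part of the genes that p53 switches on were higher in Dox, with none called lower. Of 36 tested p53 targets, 13 were higher and 0 lower, with a median log2 fold change of 0.43, where 5.13% of all genes tested were higher and the median of all genes was 0.02. Cdkn1a (chr17:29309950-29319701), the inhibitor of cyclin-dependent kinases that arrests the cycle, stood at 429, 542 and 419 in Dox and at 244, 244 and 211 in H2O2, a log2 fold change of 0.99 (SE 0.119, adjusted p = 0.000433). Mdm2 (chr10:117524780-117546663), the ubiquitin ligase that degrades p53 in a feedback loop, stood at 21, 15.4 and 22.5 in Dox and at 5.81, 6.88 and 8.22 in H2O2, a log2 fold change of 1.5 (SE 0.227, adjusted p = 0.00156). Ckap2, a spindle protein, rose by 1.43 (SE 0.198), Zmat3, an RNA-binding protein, by 0.81 (SE 0.119) and Btg2, an antiproliferative gene, by 0.93 (SE 0.154), each with separate groups. The death genes on the list gave no common picture: Bax lay at -0.14 and Bbc3 at -0.31 and neither was called. Leaving out a library gave 10 to 15 called targets, 15 of them without H2O2 replicate 3.

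Other regulators of the arrest gave other values than Cdkn1a. Cdkn2a, which encodes the senescence proteins p16 and p19, stood at 82.7, 106 and 81.6 in Dox and at 124, 131 and 99.2 in H2O2, with a log2 fold change of -0.39 (SE 0.139) that was not called (adjusted p = 0.0879); it was called lower without H2O2 replicate 3 (adjusted p = 0.00453). Cdk4, the kinase that p16 inhibits, was lower in Dox, at 352, 377 and 308 against 500.3, 526 and 517 in H2O2 (log2 fold change -0.57, SE 0.101, adjusted p = 0.00347). Id1, an inhibitor of differentiation and a target of BMP signals, rose by 0.78 (SE 0.138). Lmnb1, the nuclear lamin that is lost in senescence, differed by 0.17 and Glb1, the lysosomal galactosidase behind the common senescence stain, by -0.30, and neither was called (adjusted p = 0.53 and 0.0834).

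Mitotic genes were called in a single direction, higher in Dox. Of 37 tested, 17 were higher and 0 lower, with a median log2 fold change of 0.41, and the log2 fold change was above 0 for 35. Tpx2, a spindle assembly factor, stood at 345, 304 and 366 in Dox and at 186, 198 and 139 in H2O2 (log2 fold change 0.96, SE 0.133, adjusted p = 0.00092). Kif4, a chromosome kinesin, rose by 1.06 (SE 0.174) and Ube2c, which loads ubiquitin for the anaphase complex, by 0.61 (SE 0.101). Mki67, the proliferation marker, stood at 48.8, 23.7 and 42.3 in Dox and at 19.7, 21 and 14.2 in H2O2, so Dox replicate 2 lay close to the H2O2 group. Its log2 fold change was 1.06 (SE 0.246, adjusted p = 0.0149), and the call was lost without H2O2 replicate 1, Dox replicate 1 or Dox replicate 3 (adjusted p up to 0.101). Top2a, the topoisomerase that doxorubicin traps, stood at 169.7, 101 and 178 in Dox and at 84.1, 114 and 64 in H2O2. These groups overlapped, and its call (log2 fold change 0.78, SE 0.219, adjusted p = 0.0358) was lost without H2O2 replicate 1 or 3 or without Dox replicate 1 or 3 (adjusted p up to 0.224). The number of mitotic genes called higher was 17 without H2O2 replicate 3, 11 without H2O2 replicate 1 or Dox replicate 2, 9 without Dox replicate 1 and 6 without Dox replicate 3.

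Of 42 tested genes of DNA replication, 3 were higher and 1 was lower, against 5.13% and 7.45% over all genes. Their median was -0.06, which became 0.05 with library totals. Without H2O2 replicate 3 the replication genes had 7 higher and 3 lower, and leaving out any 1 of the Dox libraries gave 2 higher. Rrm1 and Rrm2, the subunits of ribonucleotide reductase, rose by 0.74 (SE 0.128) and 0.63 (SE 0.118), and Chaf1b, a subunit of the chromatin assembly factor, stood at 115, 113 and 106 in Dox against 177, 183 and 202 in H2O2 (log2 fold change -0.75, SE 0.102, adjusted p = 0.000821). Of 42 genes of DNA damage signalling and repair, 7 were higher and 0 lower, with a median of 0.38. Fancd2, which is central to the repair of crosslinked DNA, stood at 46.7, 45.7 and 46 in Dox and at 21.9, 22.3 and 11.9 in H2O2 (log2 fold change 1.30, SE 0.208, adjusted p = 0.00206). Mdc1, a scaffold at DNA breaks, rose by 0.88 (SE 0.143). The repair count was 3 without Dox replicate 3, 5 without Dox replicate 1 or 2 and 9 without H2O2 replicate 3, where the median was 0.24.

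Interferon-stimulated genes formed the list with the largest number of genes higher in Dox. These genes are switched on by type I interferon through its receptor, or directly by IRF3 and IRF7 after sensors detect nucleic acid in the cytosol. The response element reads GAAA, any 2 bases and GAAA again, or the reverse complement of this, and the promoters below are shown because they carry it in genes called higher here. Each window is from the RefSeq promoter table on build GRCm38.p6, 5′ to 3′ on the gene's strand, with the matches in capitals. Oas1a (chr5:120907526-120907560, minus strand), Isg15 (chr4:156200860-156200911, minus strand) and Ifit3 (chr19:34583358-34583431, plus strand) were chosen after their values were seen.
Oas1a: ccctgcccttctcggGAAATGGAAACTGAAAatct
Isg15: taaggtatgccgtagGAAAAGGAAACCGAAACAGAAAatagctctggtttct
Ifit3: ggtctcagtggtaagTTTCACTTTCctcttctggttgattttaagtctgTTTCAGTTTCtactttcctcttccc

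The Oas1a and Ifit3 windows hold 2 matches and the Isg15 window 3, which overlap each other in Oas1a and Isg15. Of 53 interferon-stimulated genes on the list, 38 were matched in the promoter table. The motif, searched on both strands in the 250 bases before the start, was in 16 of these 38 (42.1%) and in 936 of all 27025 promoters (3.46%). Of the 16 matched genes that were called, 8 carried it. Other motifs were counted for other lists in the same way. The cell-cycle homology motif was in 10 of 30 mitotic genes (33.3%, against 18.3% of all promoters). The metal response motif was in 5 of 9 metallothionein and zinc genes (55.6%, against 23.8%). The sterol response motif was in 1 of 25 sterol genes (4.0%, against 1.22%). The cAMP response motif was in 1 of 27 integrated stress response genes (3.70%, against 1.77%). A match describes the letters and not a bound site.

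Of 51 tested interferon-stimulated genes, 25 were higher in Dox and 0 lower, and the median log2 fold change was 0.95. Oas1a, which makes the messenger that activates RNase L, stood at 29.2, 27.2 and 20.2 in Dox and at 9.45, 8.71 and 10.7 in H2O2 (log2 fold change 1.41, SE 0.202, adjusted p = 0.0011). Ifit3, which binds foreign RNA with its partners, stood at 19.5, 20.5 and 20.9 in Dox and at 5.58, 11.3 and 6.30 in H2O2 (log2 fold change 1.39, SE 0.256, adjusted p = 0.00445). Isg15, a ubiquitin-like modifier, stood at 26.2, 24.9 and 21.8 in Dox and at 13.4, 15.3 and 13.2 in H2O2. Its log2 fold change was 0.80 (SE 0.175, adjusted p = 0.0109), and the call was lost without Dox replicate 1 (adjusted p = 0.0863). In all 3 genes every Dox library was above every H2O2 library.

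Sensors and regulators on the list did not all pass the test. Ddx58, which encodes RIG-I, the sensor of viral RNA, stood at 111, 98.2 and 106 in Dox and at 45.4, 50.6 and 32.9 in H2O2 (log2 fold change 1.29, SE 0.151, adjusted p = 0.000383). Dhx58, its relative, rose by 1.40 (SE 0.191), whereas Ifih1, which encodes the sensor MDA5, lay at 0.59 and was not called (adjusted p = 0.476). Irf7, a factor that amplifies the response, stood at 111, 102 and 77.4 in Dox and at 45.2, 52 and 44.4 in H2O2 (log2 fold change 1.03, SE 0.146). Among other interferon-induced genes, Oasl2 rose by 1.23 (SE 0.157). Rnf213, a very large ubiquitin ligase that is not on the list, rose by 1.77 (SE 0.252, adjusted p = 0.00106), and Ifi27, a mitochondrial protein of the same response, by 1.44 (SE 0.216, adjusted p = 0.0015). Cxcl10, an interferon-induced chemokine, did not follow: it stood at 3.33, 2.58 and 2.32 in Dox and at 3.50, 2.75 and 1.91 in H2O2, a log2 fold change of 0.01 (adjusted p = 0.989). The number of the list's genes called higher was 27 without H2O2 replicate 3, 15 without Dox replicate 3 and 12 without Dox replicate 1, and it was 25 under each of the 3 other scalings.

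Class I molecules of the major histocompatibility complex, which display peptides to T cells and inhibit NK cells, differed between genes. H2-K1 stood at 514, 590.2 and 507 in Dox and at 323, 304 and 369.9 in H2O2 (log2 fold change 0.69, SE 0.108, adjusted p = 0.00172), and H2-D1 rose by 0.72 (SE 0.122, adjusted p = 0.00291). B2m, the light chain shared by class I molecules, stood at 1491, 1675 and 1409 in Dox and at 1525, 1502 and 1674 in H2O2, which overlap, with a log2 fold change of -0.04 that turned positive under some settings. Of 8 tested ligands that activate NK cells, 0 were called: the edgeR log2 fold changes of Pvr, Ulbp1 and Raet1e were 0.21, 0.14 and -0.45 (adjusted p = 0.237, 0.67 and 0.066). Pvr, the ligand of TIGIT and of the activating receptor DNAM, was called higher without H2O2 replicate 3 (adjusted p = 0.0474). Of 14 tested inhibitory ligands 1 was higher and 1 lower, against 5.13% and 7.45% over all genes, and 2 and 2 without H2O2 replicate 3. Cd80, which engages CTLA4 and CD28 on T cells, rose by 2.17 (SE 0.348, adjusted p = 0.0021), from 1.04, 1.44 and 1.83 in H2O2 to 5.80, 7.14 and 6.56 in Dox. Lgals3, which encodes galectin-3, was lower, at 332, 349.6 and 315 in Dox against 499, 473 and 561 in H2O2 (log2 fold change -0.62, SE 0.1, adjusted p = 0.00218).

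Of 34 tested secreted factors of the senescent state, 6 were higher and 2 lower, against 5.13% higher and 7.45% lower over all genes. Without H2O2 replicate 3 these were 11 and 4, and without Dox replicate 3 they were 6 and 0. Spp1, which encodes osteopontin, stood at 161, 132 and 139.7 in Dox and at 73.8, 80.8 and 68.4 in H2O2 (log2 fold change 0.96, SE 0.118, adjusted p = 0.000471). Csf1, the growth factor of macrophages, rose by 0.68 (SE 0.106), Hbegf, a ligand of the EGF receptor, by 0.97 (SE 0.166) and Mmp2, a gelatinase, by 0.57 (SE 0.11). Tgfb1 was lower by a log2 fold change of -0.51 (SE 0.114, adjusted p = 0.0119), a call that was lost without Dox replicate 3 (adjusted p = 0.0809). Ccl5 was the single chemokine called among 13 tested with all 6 libraries, and 3 were called higher without H2O2 replicate 3. Ccl2, a monocyte chemokine, stood at 2.30, 2.68 and 3.51 in Dox and at 2.83, 2.75 and 8.14 in H2O2, with the high value in H2O2 replicate 3, and was not called (log2 fold change -0.69, adjusted p = 0.354). Il6 was among the genes below the expression filter.

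Structural matrix genes were among the genes that fell furthest in Dox relative to H2O2. Of 21 tested collagens, 8 were lower and 2 higher (median -0.12), against 7.45% lower and 5.13% higher over all genes. The lower count was 5 without Dox replicate 1 and 6 to 8 without any other library, and the higher count was 0 without Dox replicate 1 or 3. Col3a1 (chr1:45350698-45388866), the type III fibril collagen of vessel walls, stood at 20.1, 15.9 and 20.1 in Dox and at 84.9, 101 and 61.4 in H2O2 (log2 fold change -2.14, SE 0.184, adjusted p = 4.76e-05). The chains of type I collagen, the main fibril of the adventitia, were also lower. Col1a2 stood at 2042, 2076 and 2233 in Dox and at 4578, 4626 and 3569.7 in H2O2 (log2 fold change -1.01, SE 0.118), and Col1a1 differed by -0.72 (SE 0.125). Col6a2, of the beaded microfibrils around cells, differed by -1.0 (SE 0.102, adjusted p = 0.000197).

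Of 32 elastic fibre and proteoglycan genes, 8 were lower and 4 higher. Eln (chr5:134731447-134776177), which encodes elastin, the recoil protein of arteries, stood at 5.34, 4.96 and 4.60 in Dox and at 19.5, 24.6 and 17.5 in H2O2 (log2 fold change -2.05, SE 0.217, adjusted p = 0.000211). Fmod (chr1:133964992-133976015), which encodes fibromodulin, a small proteoglycan that shapes collagen fibrils, stood at 69, 83.9 and 75.6 in Dox and at 302, 301 and 219 in H2O2 (log2 fold change -1.85, SE 0.138, adjusted p = 2.15e-05). Sparc, a collagen-binding glycoprotein, differed by -0.86 (SE 0.0999). Every Dox library was below every H2O2 library for Col3a1, Col1a2, Eln, Fmod and Sparc, and these calls held whichever library was left out.

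Other matrix genes rose. Thbs1 (chr2:117942357-117957614), which encodes thrombospondin-1, an activator of latent TGF-beta, stood at 144, 126 and 168 in Dox and at 35.6, 69.2 and 54.4 in H2O2 (log2 fold change 1.46, SE 0.197, adjusted p = 0.000819). Ltbp1, which holds latent TGF-beta in the matrix, rose by 1.02 (SE 0.148), and Loxl2, a crosslinking oxidase, by 1.03 (SE 0.174). Fn1, which encodes fibronectin, stood at 5592, 5070.2 and 6283 in Dox and at 3790.2, 3613 and 2588 in H2O2 (log2 fold change 0.76, SE 0.143). Among proteases, Adamts2, which trims the ends of procollagen, was lower by a log2 fold change of -1.07 (SE 0.114, adjusted p = 0.000211).

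Of 21 tested contractile genes, 2 were higher and 2 lower, against 5.13% and 7.45% over all genes, and the median was 0.00. Without H2O2 replicate 3 it was 0.19, with 3 higher and 3 lower. The higher count was 0 without H2O2 replicate 1, Dox replicate 1 or Dox replicate 3, and the lower count was 0 without Dox replicate 3 and 1 without H2O2 replicate 1, Dox replicate 1 or Dox replicate 2. The 2 higher were Cnn1, with a log2 fold change of 1.08 (SE 0.289, adjusted p = 0.0287), and Mylk, with 0.92 (SE 0.22, adjusted p = 0.0178). Groups were separate for both. Both calls were lost without H2O2 replicate 1, Dox replicate 1 or Dox replicate 3, and that of Cnn1 also without H2O2 replicate 2. The 2 lower were Pdlim7, with -0.63 (SE 0.139, adjusted p = 0.0114), and Acta2. Acta2 stood at 2079.8, 1792 and 1719 in Dox and at 2508, 2297 and 3085 in H2O2, a log2 fold change of -0.50 (SE 0.125, adjusted p = 0.022). The Acta2 call was lost without H2O2 replicate 1, Dox replicate 2 or Dox replicate 3 (adjusted p up to 0.122). Hbegf was the single gene called higher among 31 growth factors and receptors, and 4 were lower, against 5.13% and 7.45% over all genes. Without H2O2 replicate 3, 2 were higher and 4 lower, and without Dox replicate 1 the lower count was 1. On the separate list of Wnt and Notch genes, Sfrp2, a secreted Wnt antagonist, was lower by a log2 fold change of -0.99 (SE 0.175, adjusted p = 0.00347). Of 30 tested on that list, 5 were higher and 3 lower, and 0 were higher without Dox replicate 1 or 3.

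Part of the antioxidant genes were lower in Dox. Of 43 tested NRF2 and antioxidant genes, 13 were lower and 1 higher, with a median of -0.14. Gstm1 (chr3:107919571-107925289), a glutathione transferase, stood at 291, 325 and 297 in Dox and at 801, 774 and 939.7 in H2O2 (log2 fold change -1.46, SE 0.106, adjusted p = 2.15e-05). Ftl1, the ferritin light chain that stores iron, stood at 374, 433 and 327 in Dox and at 716, 781 and 682 in H2O2 (log2 fold change -0.94, SE 0.115). Gstm2 differed by -0.75 (SE 0.1). Gstm genes are close copies of each other, so reads may be split between them. Txnrd1, a thioredoxin reductase and an NRF2 target, went the other way and rose by 0.84 (SE 0.144, adjusted p = 0.00312). Hmox1, the haem oxygenase that both NRF2 and p53 can induce, stood at 209.5, 228 and 193 in Dox and at 236, 235 and 219.6 in H2O2, and its log2 fold change of -0.14 was not called (adjusted p = 0.418). Mt1 was the single gene called among 9 tested metallothionein and zinc transport genes. Leaving out a library gave 8 to 14 antioxidant genes called lower, 8 of them without Dox replicate 1 or 3, and 3 were higher without H2O2 replicate 3.

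Of 36 tested sterol genes, 16 were lower and 0 higher, with a median of -0.43. Fdps (chr3:89000895-89009266), which makes the farnesyl diphosphate that feeds cholesterol and protein prenylation, stood at 4.97, 7.29 and 5.33 in Dox and at 33.1, 21.8 and 17 in H2O2 (log2 fold change -2.03, SE 0.268, adjusted p = 0.000713). Tm7sf2 and Ebp, late enzymes of the pathway, differed by -0.84 (SE 0.109) and -0.63 (SE 0.101). The count of sterol genes lower was 23 without H2O2 replicate 3, 8 without H2O2 replicate 1 or Dox replicate 1 and 7 without Dox replicate 3, and 1 was higher without H2O2 replicate 2 or 3. Abca1, the pump that exports cholesterol and a target of the LXR receptors, rose by 1.25 (SE 0.225, adjusted p = 0.00395), at 75.3, 57.3 and 80.2 in Dox and 27.3, 41.7 and 20.0 in H2O2.

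Of 41 tested lysosome and autophagy genes, 16 were lower and 1 higher, with a median of -0.32. Npc2, which binds cholesterol in the lysosome, stood at 434, 474 and 418 in Dox and at 796, 835 and 853 in H2O2 (log2 fold change -0.91, SE 0.0956, adjusted p = 0.000211). Gaa, the glucosidase that breaks down glycogen, differed by -0.85 (SE 0.0979), and Ctsa, a protective carboxypeptidase, by -0.94 (SE 0.114). For these 3 genes every Dox library lay below every H2O2 library. The lysosomal count was 21 without H2O2 replicate 3, 9 without Dox replicate 1 and 8 without Dox replicate 3.

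With all 6 libraries, the called genes in the stress responses of the endoplasmic reticulum and of translation lay mostly in different directions. Hspa5 encodes BiP, the main chaperone of the endoplasmic reticulum, whose promoter carries the ER stress element, CCAAT and CCACG with 9 bases between them. The window below (RefSeq, GRCm38.p6, chr2:34772010-34772058, plus strand, 5′ to 3′) shows the element in capitals, since Hspa5 was among the genes called.
Hspa5: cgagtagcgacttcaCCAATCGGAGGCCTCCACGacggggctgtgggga
The element, searched on both strands, was in 9 of 21 matched promoters of the chaperone list (42.9%) and in 35 of 27025 promoters (0.13%). Of the 5 matched genes of this list that were called, 2 carried it. Hspa5 stood at 358, 320.0 and 426 in Dox and at 228, 241 and 204 in H2O2 (log2 fold change 0.72, SE 0.119, adjusted p = 0.00261). Hyou1, another chaperone, rose by 0.70 (SE 0.106), while Herpud1, which serves the degradation of misfolded proteins, was lower by a log2 fold change of -0.78 (SE 0.108). Of 23 tested chaperone and unfolded protein genes, 5 were higher and 1 lower, and the count of 5 was 2 without Dox replicate 3, and 3 without Dox replicate 1 or H2O2 replicate 1.

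The integrated stress response, which slows translation and switches on ATF4 targets, had 7 of 31 genes lower and 0 higher in Dox. Over all genes tested 7.45% were lower and 5.13% higher. Trib3, a pseudokinase and ATF4 target, stood at 186, 207 and 167 in Dox and at 310.2, 286 and 356 in H2O2 (log2 fold change -0.77, SE 0.116, adjusted p = 0.00151). Slc6a9, a glycine transporter, differed by -0.73 (SE 0.127) and Sars, a tRNA synthetase, by -0.53 (SE 0.0985). Atf3 and Ddit3, which encode stress-induced factors, were not called (log2 fold changes -0.36 and -0.17). The count of 7 became 3 without H2O2 replicate 1, Dox replicate 1 or Dox replicate 3. Without H2O2 replicate 3, 9 genes were lower and 2 higher. The median of the list was -0.20 with all 6 libraries and -0.05 without H2O2 replicate 3.

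A list of doxorubicin targets, efflux pumps and reductases also held called genes. Of 34 tested, 7 were higher and 3 lower, against 5.13% and 7.45% over all genes. The carboxylesterases Ces2e and Ces2g were placed on this list, and whether they act on doxorubicin was not tested. The efflux pumps Abcb1b and Abcg2 rose by 1.26 (SE 0.287) and 1.05 (SE 0.241), each with separate groups. Cbr2, a carbonyl reductase, was lower, at 94.3, 127 and 105 in Dox against 242, 228 and 228 in H2O2 (log2 fold change -1.10, SE 0.119, adjusted p = 0.000212). The count of 7 was 2 without Dox replicate 3, where Ces2e and Ces2g kept their calls and both pumps lost theirs. It was 3 without Dox replicate 1 or H2O2 replicate 1. The count of 3 lower was 1 without any 1 of the Dox libraries or H2O2 replicate 1, and 2 without H2O2 replicate 2.

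Replication-dependent histone genes had the lowest median of any list, -1.72 over 18 tested, with 8 lower and 0 higher. H4c12 stood at 0.164, 0.446 and 0.273 in Dox and at 1.94, 3.21 and 2.87 in H2O2 (log2 fold change -3.17, SE 0.642, adjusted p = 0.00725). The H4c12 call was lost without Dox replicate 1 or 3 (adjusted p up to 0.0579). These transcripts end without a poly-A tail and their genes are close copies, so the poly-A libraries hold few of their reads and the values are uncertain. H1f0 is a polyadenylated linker histone of resting cells that was placed on the same list. Its log2 fold change was -0.47 (SE 0.0951, adjusted p = 0.00741), a call lost without H2O2 replicate 1 or Dox replicate 1 (adjusted p up to 0.0667). The count of 8 was 6 without H2O2 replicate 3, 3 without H2O2 replicate 1, Dox replicate 1 or Dox replicate 2, and 2 without Dox replicate 3.

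**Figure D2:**
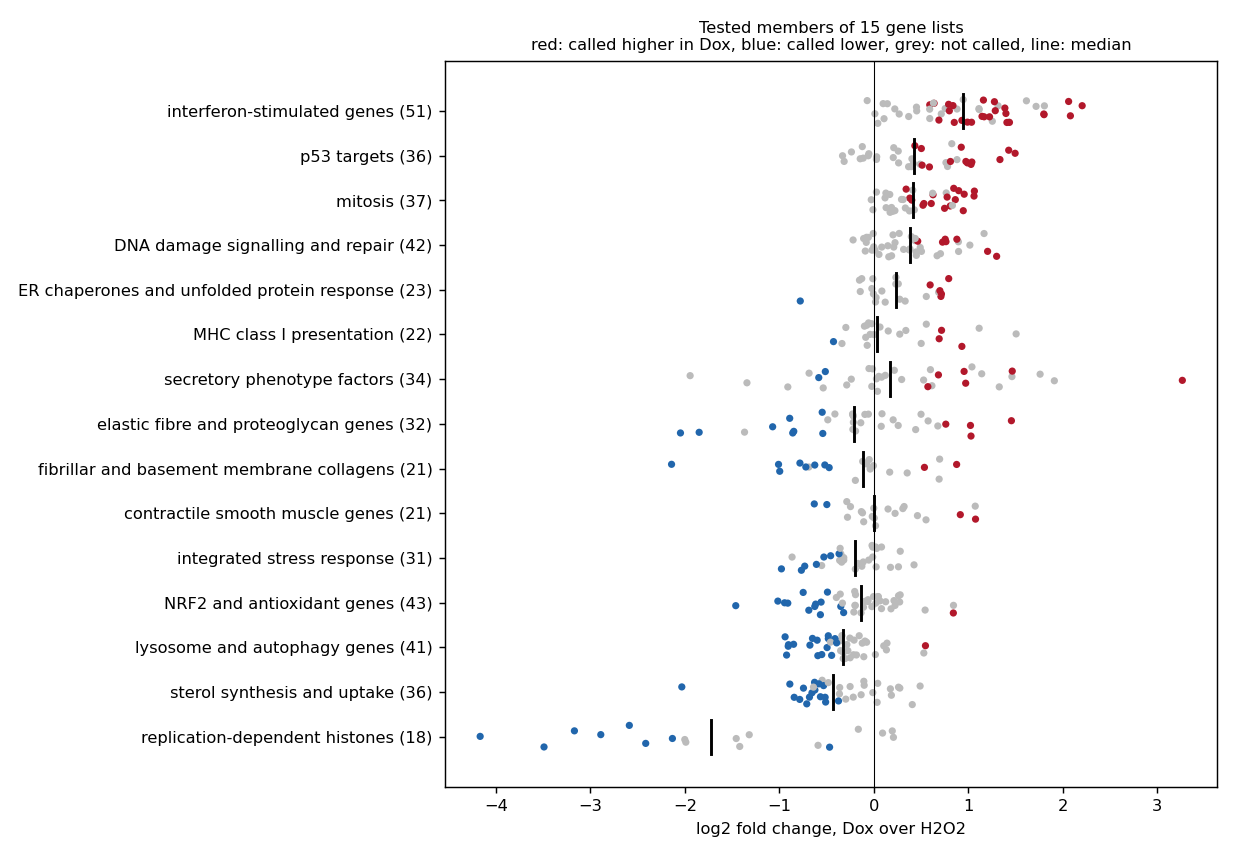
The log2 fold change of Dox over H2O2 for each tested member (point) of 15 gene lists, with the number tested in brackets, called genes in colour and the list median as a black line. The interferon-stimulated genes have a median of 0.95, the p53 targets 0.43, the sterol genes -0.43 and the replication-dependent histones -1.72.

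The same contrast was available in 6 libraries that share none with the comparison: D_I replicates 1 to 3 and H_I replicates 1 to 3. Their treatment label gives isoliensinine, an alkaloid of the lotus seed, and their titles were read as the doxorubicin and peroxide arms with isoliensinine. In a model of the 12 libraries, which share their estimate of spread, 1820 of 13069 genes (13.9%) were called between D_I and H_I, 7.49% higher and 6.44% lower. The same model called 2720 genes (20.8%) between Dox and H2O2, 1340 higher (10.3%) and 1380 lower (10.6%), against 1567 in the 6 libraries alone. Of the 1567 genes called between Dox and H2O2, 1480 (94.4%) had the same sign between D_I and H_I, against 6870 of the 10871 genes not called (63.2%). The number called in the same direction in both was 803, which is 51.2% of the Dox and H2O2 calls and 44.1% of the D_I and H_I calls. The fold changes between D_I and H_I were 1.39 for Ccl5, 2.53 for Sprr1a, 1.89 for Ces2e, 2.61 for Tigit, 0.99 for Cdkn1a, -1.47 for Mt1, -2.43 for Col3a1, -2.11 for Eln and -1.67 for Fmod, on the log2 scale and each called. Among other genes named above, Trib3 (-0.16), Txnrd1 (0.28), Tm7sf2 (-0.25) and Rrm1 (0.25) kept their sign but were not called there. Cnn1 (-0.63) and Tgfb1 (0.17) turned sign and were not called. Of the interferon-stimulated genes 22 of 53 were called higher there, of the sterol genes 15 of 36 lower and of the histones 1 of 20 lower (median -0.33). Of 21 contractile genes 0 were higher and 5 lower. Of 31 integrated stress response genes 2 were higher and 5 lower (median -0.01). H_I replicate 1 stood apart in markers of other tissues: its colon markers summed to 920.2 CPM and its liver markers to 559, where the other 5 libraries had 184 to 354 and 143 to 209.5. The medians of these lists between D_I and H_I were -1.35 and -1.11, against 0.79 and 0.08 between Dox and H2O2. Without H_I replicate 1 they were -0.61 and -0.52, 1354 genes were called, and 1454 of the 1567 (92.8%) had the same sign. The calls of the 9 genes listed from Ccl5 to Fmod held, and 17 interferon-stimulated genes were higher, 15 sterol genes lower and 1 of 21 histones lower (median -0.07). The part of such RNA in these values was not tested.

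Called in opposite directions were 4 genes: Egr1, Ivns1abp, Prom1 and Tmsb4x. A test of the difference between the contrasts called 1 of 13069 genes (0.00765%), Egr1, an immediate early factor; 1774 genes had an unadjusted p under 0.05, and DESeq2 called 176. Egr1 stood at 198, 225 and 216 in Dox and at 279.7, 246 and 284 in H2O2, with a log2 fold change of -0.34 (SE 0.101, adjusted p = 0.0442) that was lost without H2O2 replicate 1 or any 1 of the Dox libraries (adjusted p up to 0.24). Between D_I and H_I it was 0.62 (adjusted p = 0.000114), and the difference of the contrasts was 0.94 (SE 0.13, adjusted p = 0.00617).

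**Figure D3:**
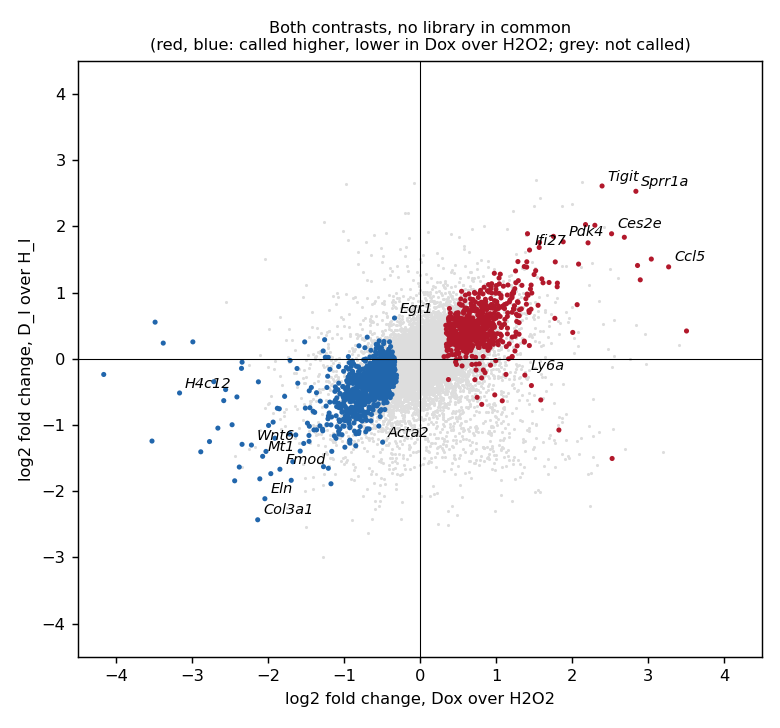
The log2 fold change of each gene in Dox over H2O2 (x axis) and D_I over H_I (y axis), genes called in the former in colour. Most coloured points lie in the lower left and upper right fields, with Egr1 among the exceptions; 4 called genes lie outside the axes, which end at 4.5.

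The size and the level of a gene moved with the result. Of 2911 genes that span under 10 kb of the genome, 14.3% were lower in Dox and 3.09% higher, whereas of 1718 genes over 100 kb 3.26% were lower and 5.82% higher. The median log2 fold change was -0.14 in the shortest class, 0.01 from 10 to 30 kb, 0.12 from 30 to 100 kb and 0.08 above. H2O2 replicate 3 deviated from the other H2O2 libraries by a median of 0.16 in the shortest class and -0.08 in the longest, and Dox replicate 2 from the other Dox libraries by 0.14 and -0.16. Without H2O2 replicate 3 the medians ran from -0.06 to 0.11. Between D_I and H_I they ran from -0.04 to 0.02, although 9.91% of the shortest genes were lower there. Of 75 tested ribosomal protein genes, which are short, 13 were lower and 2 higher, with a median of -0.12 that was 0.01 without H2O2 replicate 3. The part of transcript size in the gene lists above was not tested.

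**Figure D4:**
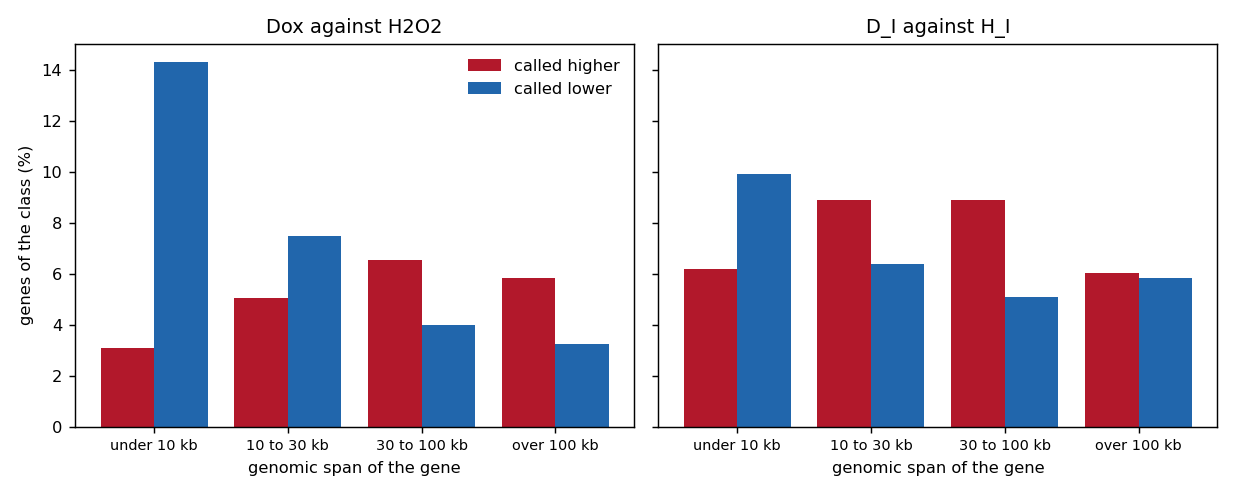
Percent of genes called higher (red) and lower (blue) in 4 classes of genomic span, for Dox against H2O2 (left) and D_I against H_I (right). In the left panel the share called lower falls from 14.3% under 10 kb to 3.26% over 100 kb.

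Markers of other cell types were present in both groups. The 16 colon epithelium markers summed to 109.7 to 331 CPM in Dox and 54.2 to 199 in H2O2, and the 16 liver markers to 102 to 156 in Dox and 72 to 184 in H2O2, with no marker of either list at 0 in a whole group. Of the colon markers 0 of 16 were called, with a median log2 fold change of 0.79, and without H2O2 replicate 3 the median was 1.71 and 6 were higher. In the order of the replicates the colon sums were 331, 109.7 and 178 in Dox and 71.1, 54.2 and 199 in H2O2. Epithelia also express Ces2e and Sprr1a, whose values by library stand above, and the part of epithelial RNA in them was not tested. The 13 fibroblast markers, Col1a1 and Col3a1 among them, summed to 2213 to 2471 CPM in Dox and 2890.5 to 4002 in H2O2. Col1a1 held most of each sum, at 1928 to 2162 in Dox and 2441 to 3569 in H2O2. Of 10 fibroblast markers tested, 4 were lower and 0 higher. The part of fibroblast-like cells in the matrix result was not tested. The 14 macrophage markers summed to 399 to 427 in Dox and 499 to 595 in H2O2, where Adgre1 was at 0. Lgals3 held most of each sum, at 335 to 350 in Dox and 462 to 525 in H2O2. It was the single marker called of 6 tested, and it was lower. The median log2 fold change of the 6 was 0.75. The 12 endothelial markers summed to 37.9 to 45.2 in Dox and 38 to 42.4 in H2O2, with 0 of 8 tested called. For the labelled cell type, the 10 smooth muscle markers summed to 1986 to 2382 in Dox and 2424 to 3064 in H2O2. Acta2 held most of each sum, at 1794 to 2173 in Dox and 2244 to 2890 in H2O2. Of 8 smooth muscle markers tested, 2 were higher and 1, Acta2, was lower, with a median log2 fold change of 0.12. Of 14 lymphocyte markers 7 were at 0 in all H2O2 libraries, Cd3e, Klrk1 and Ncr1 among them, and 1, Eomes, in all Dox libraries, which are deeper. The sums were 1.99 to 3.91 CPM in Dox and 2.56 to 4.78 in H2O2; 2 markers were tested and 0 called, and the part of lymphocytes in the Tigit result was not tested.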

How the data were processed

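RNA-seq of 18 MOVAS libraries was analysed; the 6 Dox and H2O2 libraries entered the comparison. The deposited table gives read counts per gene, per the file headers, with no normalization, and FPKM values made by the authors from the same counts. HTSeq 0.9.1, HISAT2 2.1.0 and fastp 0.22.0 were named per the submitters' processing notes, with no role stated; no source used here names the build, annotation or strand. Totals ran from 13382308 to 23284077 counts. In R 4.3.3, counts were filtered by edgeR 4.0.16 (filterByExpr), scaled by TMM and tested by its quasi-likelihood test with Benjamini-Hochberg adjustment over all 12452 genes. SE is the log2 fold change over the root of the F statistic. DESeq2 1.42.0 and limma 3.58.1, on log2(FPKM + 1) and log2(FPKM + 0.1), were alternatives. Named genes were the 10 called genes with the largest change each way (at least 5 FPKM, groups separate), up to 3 called members of each list each way by smallest p, and a fixed set; other names were chosen after their values were seen. Members and lists were chosen with earlier results of these data known. Replicates are biological per the series' design text.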

Additional observations from a re-analysis of the deposited data

Results flagged for a closer look

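Egr1 differed between the contrasts. Its log2 fold change was -0.34 in Dox over H2O2 and 0.62 in D_I over H_I, and the test of the difference itself gave 0.94 (SE 0.13, edgeR adjusted p = 0.00617). With all 18 libraries in the model 0 genes were called in that test.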

How the results depend on the processing

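The count of 1567 genes called between Dox and H2O2 (639 higher, 928 lower) stayed within 1.5 times under DESeq2 (2135), limma on log2 FPKM, 3 other scalings, 2 other filters, thinned counts and a model of all 18 libraries. It was 2720 in the model of 12 libraries (1340 higher, 1380 lower), 587 at an adjusted p under 0.01 (214 and 373), 608 in a test against a fold of 1.2 (253 and 355), and 2698 without H2O2 replicate 3 and Dox replicate 2 together (1243 and 1455), an alternative chosen after seeing the data. Higher genes outnumbered lower ones with limma, at 938 and 671 on log2(FPKM + 1) and 876 and 649 on log2(FPKM + 0.1). The same held with library totals (932 and 626) and with all 18 libraries (900 and 846). With the replicate number as a block, 608 genes were called (248 higher, 360 lower). The deviations of same-numbered libraries correlated at -0.067, -0.058 and -0.10, and 0 of the 3 Dox libraries correlated best with its own number. The best correlations, with other numbers, were only 0.067 to 0.145, so these values cannot decide whether the libraries were paired. Leaving out 1 library gave 492 to 2174 calls (187 to 1061 higher, 305 to 1113 lower). The calls between D_I and H_I were 1097 with all 18 libraries, 3197 in a fit of those 6 libraries alone, also added after seeing the data, and 1079 to 2827 leaving out 1 library. The difference between the contrasts gave 176 calls by DESeq2, 376 with no filter, 0 with all 18 libraries and 1 to 298 leaving out 1 library. The cause of these shifts was not tested. Of 136 called named genes, 80 kept the call in every setting run, 52 lost it without 1 library or more, and 0 changed sign. Uncalled genes that changed sign were B2m (0.0651 with limma at either pseudocount, 0.0662 with library totals, 0.0033 with all 18 libraries, -0.109 to 0.0317 leaving out 1 library), Ccl2 (0.0604 without both libraries, -0.943 to 0.0424 leaving out 1, the upper value without H2O2 replicate 3), Cxcl10 (-0.137 without both, -0.161 to 0.259 leaving out 1, the lower value without H2O2 replicate 3), Ddit3 (-0.287 to 0.0592 leaving out 1, the upper value without H2O2 replicate 3) and Ulbp1 (-0.00117 without Dox replicate 3 to 0.31). With 3 libraries a group, the median half-width of the 95% interval of a log2 fold change was 0.44.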

Other observations

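Genes of signalling outside the comparisons above also differed between Dox and H2O2. In the TGF-beta and BMP list 5 of 35 tested genes were higher in Dox and 1 lower, against 5.13% and 7.45% over all genes; 8 were higher without H2O2 replicate 3 and 3 without Dox replicate 3. Ccn2, a matricellular target of the pathway, stood at 115, 107 and 106 in Dox and at 27.5, 61.2 and 60.9 in H2O2 (log2 fold change 1.13, SE 0.228, edgeR adjusted p = 0.00709). H2O2 replicate 1 was well below the other H2O2 libraries for Ccn2, and the groups did not overlap. Abca2, a lipid transporter, rose by 0.54 (SE 0.094), and Nr1h2, a receptor for oxysterols, was lower by a log2 fold change of -0.72 (SE 0.143). In energy metabolism, Sdha, the flavoprotein of succinate dehydrogenase, stood at 125, 123 and 141 in Dox and at 72.9, 75.6 and 64.5 in H2O2 (log2 fold change 0.87, SE 0.114, adjusted p = 0.00069), and Ndrg1, a hypoxia-responsive gene, was lower by -0.80 (SE 0.0987, adjusted p = 0.000482). Of 33 tested BCL2 family and death receptor genes, 3 were lower and 1 higher, near the 7.45% and 5.13% over all genes. Their median log2 fold change was 0.12. The pore-forming Bak1 was lower, with a log2 fold change of -0.76 (SE 0.103, adjusted p = 0.000821), as was Bok, with -0.77 (SE 0.143, adjusted p = 0.00459). Tnfrsf10b was the gene called higher, with 0.59 (SE 0.161, adjusted p = 0.032). That call was lost without H2O2 replicate 1 or any 1 of the Dox libraries.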
